A study of Homo sapiens with 6 samples.

Results

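The genes described here handle glutathione, the tripeptide that serves as the main thiol antioxidant of the cell. They were the 10 rows of the deposited expression table whose gene name was GGT1, GGT5, GGT7, GCLC, GCLM, GSS, GSR, GPX1, GPX4 or GSTP1, of 58395 rows in all. Glutathione is made in the cytosol, first by glutamate-cysteine ligase and then by glutathione synthetase, and is broken down outside the cell by gamma-glutamyltransferases, which return its amino acids to the cell. Glutathione peroxidases use it to reduce peroxides, glutathione reductase restores the oxidised form with NADPH, and glutathione transferases attach it to reactive compounds. In the kidney, gamma-glutamyltransferase is best known from the brush border of the proximal tubule, the segment from which clear cell renal carcinoma is thought to arise.

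RNA was sequenced from 786-O, an established line grown from a human clear cell kidney tumour, which lacks functional VHL. The study asked what the loss of PLOD2, the gene of a collagen lysyl hydroxylase, does to the transcriptome of this line. The sgPLOD2 group held 3 libraries of cells in which PLOD2 had been ablated with CRISPR/Cas9, and the sgControl group held 3 libraries of control cells. All cells were grown in the same serum-containing medium, and no other treatment is labelled. Whether the sgPLOD2 cells were 1 clone or a pool, and whether the replicates were separate cultures, was not stated. The p-values therefore measure the spread between these libraries only, and that spread may be technical.

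The values are FPKM, fragment counts that the authors scaled for gene length and library size. Comparisons of levels between genes rest on the gene lengths used, which were not stated. Between 9874 and 10649 genes reached 1 FPKM per library, and absolute depth is unknown. PLOD2 had 5.98, 10.1 and 6.64 FPKM in sgPLOD2, against 26.8, 25.7 and 21.5 FPKM in sgControl (log2 fold change -1.61 ± 0.18 SE, limma adjusted p = 0.000509; exact permutation test, 2-sided p = 0.1, the smallest that 3 libraries against 3 allow). The renal lineage factor PAX8 was present in every library at 22.6 to 26.7 FPKM in sgPLOD2 and 23.1 to 36.4 FPKM in sgControl. Of the 8 renal carcinoma markers listed, 4 were tested: LHX1 was called higher (log2 fold change 1.51), PAX2 (-0.33) and VIM (-0.36) were called lower, and PAX8 was not called. CA9, at 0.285 to 0.368 FPKM in sgPLOD2 and listed at 0 in sgControl, and NDUFA4L2, at 0.0272 to 0.0867 FPKM in sgPLOD2 and 0.143 to 0.220 FPKM in sgControl, were under the filter. Of 7 immune cell markers only CD68, which many cell types make, reached 1 FPKM, and PTPRC and CD3E were at or near 0. The immune markers summed to 5.62 to 6.65 FPKM in sgPLOD2 and to 11.5 to 18.4 FPKM in sgControl. The 7 fibroblast markers summed to 3.15 to 3.62 FPKM in sgPLOD2 and to 0.695 to 0.978 FPKM in sgControl, nearly all from COL1A1 in sgPLOD2, with DCN at 0. The part of these markers in the results was not tested. CUBN and LRP2, receptors of the mature proximal tubule, were near 0 in both groups. The library sgControl replicate 1 stood apart in its share of mitochondrial transcripts, 12.9% of all FPKM, against 6.01% to 6.72% in sgPLOD2 and 6.96% and 7.5% in the other sgControl libraries.

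GGT1 and GSTP1 fell steeply in sgPLOD2, GSR fell moderately, GCLM and GPX4 fell slightly, and GGT7 and GCLC rose. Of the 10 genes, 9 passed the filter of a mean of at least 1 FPKM and were tested with limma on log2(FPKM + 1) among 10469 genes. Of these 9, 2 were called higher and 5 lower at a Benjamini-Hochberg adjusted p under 0.05, and GSS and GPX1 were not called. Over all genes tested, 52.9% were called, 29.5% higher and 23.5% lower, so a call by itself was common. The libraries of the groups did not overlap for 7 of the 9 genes, against 62.7% of all tested genes. The median log2 fold change of the 9 genes was -0.25, against 0.06 over all tested genes. The authors' deposited table called the same 7 genes in the same directions at an adjusted p under 0.05. It called 35.5% of the 22870 genes to which it gave an adjusted p, a wider set than the 10469 tested here. In size of fall, GGT1 ranked 31 and GSTP1 ranked 41 among the 10469. These ranks use log2(FPKM + 1), which understates changes at low levels, so they favour abundant genes. Without sgControl replicate 1, 3 genes were called higher (GGT7, GCLC and GPX1) and 3 lower (GGT1, GSR and GSTP1).

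**Figure D1:**
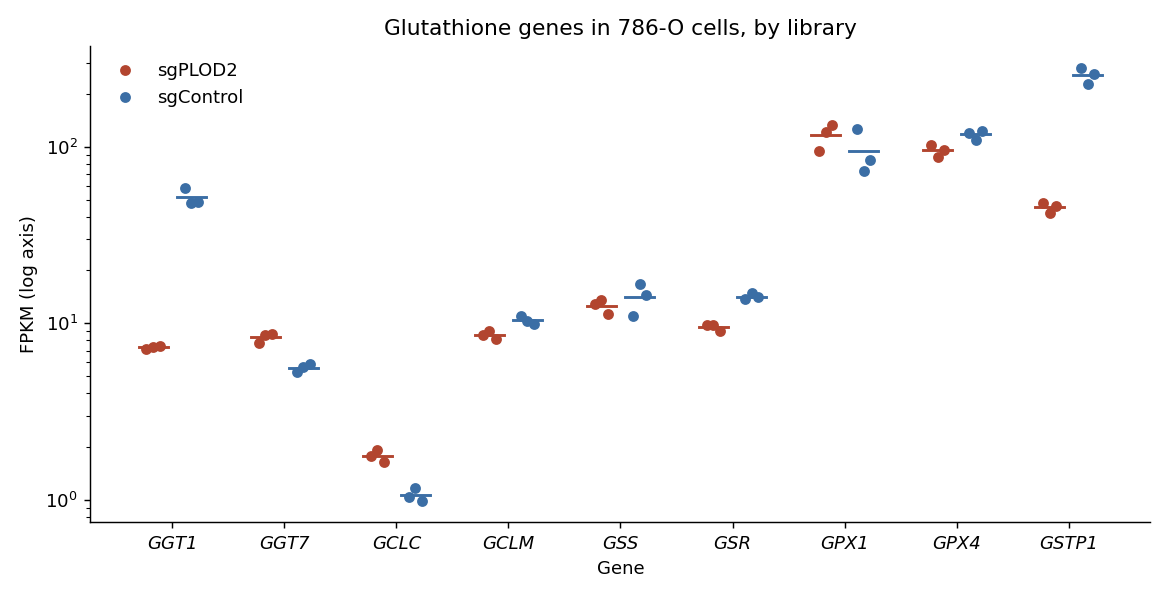
FPKM of the 9 tested glutathione genes in each library on a log axis, with 3 sgPLOD2 libraries left of 3 sgControl libraries per gene and a line at each group's mean. GGT1 and GSTP1 are the widest apart, GSS and GPX1 overlap, and GGT5 is not drawn because it was listed at 0 in every library.

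The order of the levels changed with these falls. In sgPLOD2 the order was GPX1, GPX4, GSTP1, GSS, GSR, GCLM, GGT7, GGT1 and GCLC, with means of 117, 95.9, 45.8, 12.6, 9.55, 8.62, 8.34, 7.30 and 1.77 FPKM. Neighbours whose libraries overlapped there were GPX1 and GPX4, GSR and GCLM, and GCLM and GGT7. In sgControl the order was GSTP1, GPX4, GPX1, GGT1, GSR, GSS, GCLM, GGT7 and GCLC, with means of 257, 118, 94.9, 51.8, 14.2, 14.1, 10.4, 5.61 and 1.06 FPKM. There, GPX4 overlapped with GPX1 and GSR with GSS. GCLC was the lowest of the 9 in both groups, and its level exceeded that of only 14.3% of tested genes in sgPLOD2 and 6.82% in sgControl. GGT1 stood above 56.4% of tested genes in sgPLOD2 and above 92.0% in sgControl.

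Promoter windows are shown for GSTP1 and GGT1, which fell most, and for GCLM and GCLC, which encode subunits of the same enzyme and moved in opposite directions. They are RefSeq sequences on GRCh38.p14, each 250 bases before to 50 bases after an annotated start, and 7 of the 10 genes had such a window. Capitals mark matches to TGACNNNGC on either strand, the core of the antioxidant response element, to which NRF2 with small MAF proteins is known to bind.
GSTP1, chr11:67583562-67583861, plus strand: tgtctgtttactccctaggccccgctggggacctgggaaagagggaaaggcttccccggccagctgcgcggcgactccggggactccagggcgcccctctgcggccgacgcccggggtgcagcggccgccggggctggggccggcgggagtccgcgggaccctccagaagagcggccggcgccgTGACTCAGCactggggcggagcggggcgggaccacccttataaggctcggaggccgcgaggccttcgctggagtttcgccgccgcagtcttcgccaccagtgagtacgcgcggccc
GGT1, chr22:24602943-24603242, plus strand: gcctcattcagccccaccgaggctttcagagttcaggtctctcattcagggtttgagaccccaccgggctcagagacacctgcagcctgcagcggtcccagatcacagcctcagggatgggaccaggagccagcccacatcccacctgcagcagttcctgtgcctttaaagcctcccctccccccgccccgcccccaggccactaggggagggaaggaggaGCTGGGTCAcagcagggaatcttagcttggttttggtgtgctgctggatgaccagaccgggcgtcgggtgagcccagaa
GCLM, chr1:93909381-93909680, minus strand: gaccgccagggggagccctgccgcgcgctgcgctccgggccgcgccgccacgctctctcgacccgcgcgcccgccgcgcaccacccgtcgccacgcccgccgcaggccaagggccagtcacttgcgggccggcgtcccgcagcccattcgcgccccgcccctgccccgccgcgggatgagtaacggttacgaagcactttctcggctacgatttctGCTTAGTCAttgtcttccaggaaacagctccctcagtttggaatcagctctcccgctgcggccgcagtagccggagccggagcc
GCLC, chr6:53545052-53545351, minus strand: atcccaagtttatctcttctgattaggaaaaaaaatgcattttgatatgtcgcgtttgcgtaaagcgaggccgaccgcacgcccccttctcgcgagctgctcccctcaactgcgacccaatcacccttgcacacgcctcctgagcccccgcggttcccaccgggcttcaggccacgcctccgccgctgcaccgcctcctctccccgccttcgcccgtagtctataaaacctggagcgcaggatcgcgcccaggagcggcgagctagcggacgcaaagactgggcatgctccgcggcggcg
The 7 genes had 10 windows, and the core occurred in 3 of these 10, 1 each for GSTP1, GGT1 and GCLM, and in 13.3% of all 35116 RefSeq promoter windows. In GSTP1 it began 66 bases before the start and read TGACTCAGC, overlapping a match to the AP-1 motif TGANTCA, which 7.71% of all windows hold. In GGT1 it lay on the opposite strand, 29 to 21 bases before the start, and the second RefSeq window of GGT1 (chr22:24583500-24583799) had no match. In GCLM it also lay on the opposite strand, 34 to 26 bases before the start. The GCLC window had no match. These matches describe the letters of the windows only, and sequence outside the windows was not searched. A window without a match therefore does not show that a gene lacks the core.

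Of the breakdown enzymes, GGT1 fell, GGT7 rose and GGT5 was not detected. GGT1 (ENSG00000100031; GRCh38, chromosome 22, 24594811 to 24629005, plus strand, protein-coding), which encodes the surface enzyme that cleaves the gamma-glutamyl bond of glutathione, had 7.16, 7.31 and 7.42 FPKM in sgPLOD2, against 58.4, 48.1 and 48.9 FPKM in sgControl. The sgPLOD2 libraries had a coefficient of variation of 1.81%, and the lowest sgControl library was far above all of them. The mean was 14.1% of that in sgControl, and the log2 fold change was -2.66 ± 0.10 (SE; limma adjusted p = 4.45e-06; 95% interval -2.89 to -2.44). In these bulk samples, fewer cells that make a transcript and less of it per cell cannot be told apart.

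GGT1 has close copies on chromosome 22 and elsewhere, with which its reads could have been shared, and how such reads were counted was not stated. GGT2, GGT3P and GGT4P were listed at 0 in every sgPLOD2 library. In sgControl, GGT4P had 0.916, 0.854 and 1.11 FPKM, and GGT2 and GGT3P stayed at or below 0.267 FPKM. Summed over 10 copies and relatives in the table, the level was 0.176 to 0.361 FPKM in sgPLOD2 and 1.11 to 1.79 FPKM in sgControl, small beside GGT1 in either group. In sgPLOD2 the whole of that sum came from GGT8P. GGT6, GGTLC2 and GGTLC3 were listed at 0 throughout.

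GGT7 (ENSG00000131067; chromosome 20, 34844720 to 34872856, minus strand), a family member of less clear function, had 7.76, 8.56 and 8.70 FPKM in sgPLOD2, against 5.32, 5.64 and 5.86 FPKM in sgControl. Every sgPLOD2 library was higher than every sgControl library. The log2 fold change was 0.50 ± 0.09 (SE; limma adjusted p = 0.00286). In sgPLOD2, GGT7 stood slightly above GGT1 in FPKM, an order that depends on the gene lengths used. In sgControl, GGT1 was the higher of both in every library. GGT5 (ENSG00000099998; chromosome 22, 24219654 to 24245142, minus strand), whose enzyme converts leukotriene C4, was listed at 0 FPKM in all 6 libraries, and the authors' deposited table gave it a mean normalized count of 0.

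Of the 3 synthesis genes, GCLC rose, GCLM fell slightly and GSS was not called. GCLC (ENSG00000001084; chromosome 6, 53497341 to 53616970, minus strand) encodes the catalytic subunit of glutamate-cysteine ligase, which carries out the rate-limiting step. It had 1.76, 1.91 and 1.64 FPKM in sgPLOD2, against 1.03, 1.16 and 0.987 FPKM in sgControl, with no overlap. The mean was 167% of that in sgControl, and the log2 fold change on log2(FPKM + 1), which understates changes at such low levels, was 0.43 ± 0.08 (SE; limma adjusted p = 0.00501). The authors' deposited table gave a log2 fold change of 0.642 with an adjusted p of 0.000122, at a mean normalized count of 1656. The median log2 fold change of the 511 tested genes on chromosome 6 was 0.35, and after centring each chromosome on its own median GCLC had 0.08 (limma adjusted p = 0.455). Once fold changes were adjusted for the GC content and length of transcripts it had 0.13 (limma adjusted p = 0.246).

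GCLM (ENSG00000023909; chromosome 1, 93885199 to 93909456, minus strand), the modifier subunit that raises the ligase's affinity for glutamate, had 8.58, 9.09 and 8.19 FPKM in sgPLOD2, against 11.0, 10.3 and 9.93 FPKM in sgControl. The groups did not overlap, but the closest libraries were less than 1 FPKM apart. The log2 fold change was -0.25 ± 0.08 (SE; limma adjusted p = 0.0419). The direction held under all 19 alternatives, while the call was lost under 9, among them each of the 6 fits without 1 library, where adjusted p was 0.0673 to 0.118. It was also lost with TPM scaling (-0.13, adjusted p = 0.248) and after centring each chromosome (-0.18, adjusted p = 0.117). After GC and length adjustment the fall was larger (-0.65, adjusted p = 0.00113).

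The ratio of GCLC to GCLM within a library does not depend on how libraries are scaled. It was 0.205, 0.210 and 0.200 in sgPLOD2, against 0.0936, 0.113 and 0.0994 in sgControl. The sgPLOD2 libraries were all higher, by 2.02-fold on average (log2 difference 1.01; exact permutation test, 2-sided p = 0.1, the smallest possible with 3 libraries against 3). With each chromosome centred, a setting chosen after seeing the data, the log2 difference was 0.60. GCLM remained the more abundant transcript in every library.

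**Figure D2:**
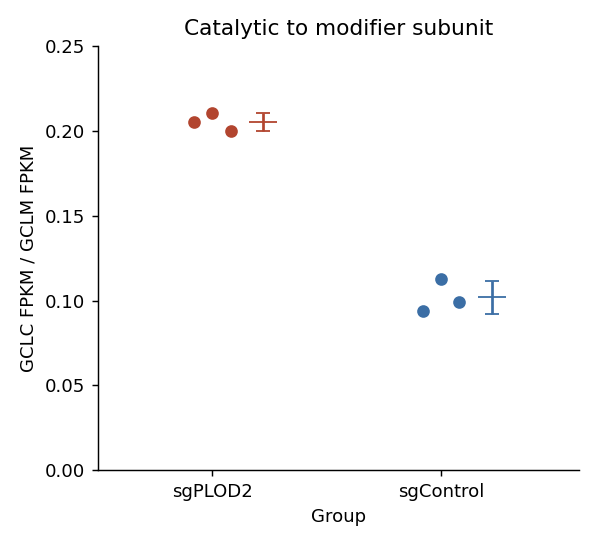
GCLC FPKM divided by GCLM FPKM in each library, sgPLOD2 left of sgControl, with the mean and SD (n = 3 each) beside the points. The sgPLOD2 libraries sit at 0.200 to 0.210 and the sgControl libraries at 0.0936 to 0.113.

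GSS (ENSG00000100983; chromosome 20, 34928432 to 34956027, minus strand), which encodes glutathione synthetase, had 12.9, 13.6 and 11.3 FPKM in sgPLOD2, against 11.1, 16.6 and 14.5 FPKM in sgControl. The libraries overlapped, and the spread in sgControl was wide. The log2 fold change was -0.13 (95% interval -0.49 to 0.22; limma adjusted p = 0.478). GSS lies 55.6 kb from GGT7, which rose. Of the 14 tested genes within 500 kb of GGT7, 1 was called higher and 8 lower, against 29.5% higher and 23.5% lower of all tested genes.

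GSR (ENSG00000104687; chromosome 8, 30678066 to 30727846, minus strand), the glutathione reductase gene, fell. It had 9.78, 9.79 and 9.08 FPKM in sgPLOD2, against 13.7, 14.8 and 14.1 FPKM in sgControl. The groups were clearly apart, and the mean was 67.3% of that in sgControl. The log2 fold change was -0.53 ± 0.08 (SE; limma adjusted p = 0.00163), and it stayed called under all 19 alternatives, at -0.59 to -0.41.

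Of the peroxidases among the 10 genes, GPX4 fell slightly and GPX1 was not called. GPX4 (ENSG00000167468; chromosome 19, 1103926 to 1106791, plus strand) encodes the selenoenzyme that reduces lipid hydroperoxides in membranes and guards cells against ferroptosis. It had 103, 88.3 and 96.4 FPKM in sgPLOD2, against 121, 109 and 124 FPKM in sgControl. The lowest sgControl library was only slightly above the highest sgPLOD2 library. The log2 fold change was -0.30 ± 0.09 (SE; limma adjusted p = 0.0307). The call was lost under 10 of 19 alternatives, including without sgControl replicate 1 (0.0501) or 3 (0.103) and without sgPLOD2 replicate 2 (0.110) or 3 (0.0728), and after GC and length adjustment the value was 0.05 (adjusted p = 0.672). GPX4 had -0.17 with TPM scaling (0.127), -0.14 with quantile normalization (0.166) and -0.12 after centring each chromosome (0.312).

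GPX1 (ENSG00000233276; chromosome 3, 49357176 to 49358358, minus strand, typed as a polymorphic pseudogene in the deposited table) encodes the cytosolic peroxidase for hydrogen peroxide. It had 94.7, 122 and 133 FPKM in sgPLOD2, against 127, 72.9 and 84.6 FPKM in sgControl. The overlap came from sgControl replicate 1, the library with the high mitochondrial share. The log2 fold change was 0.32 (95% interval -0.20 to 0.84; limma adjusted p = 0.255). Without sgControl replicate 1 it was 0.55 (adjusted p = 0.0241), and after GC and length adjustment 0.67 (adjusted p = 0.0414). After centring each chromosome it was -0.01 (adjusted p = 0.969), the median of the 570 tested genes on chromosome 3 being 0.33.

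GSTP1 (ENSG00000084207; chromosome 11, 67583742 to 67586656, plus strand), the gene of the pi class glutathione transferase that detoxifies electrophiles, was the most abundant of the 10 genes in sgControl and fell steeply. It had 48.4, 42.3 and 46.6 FPKM in sgPLOD2, against 283, 230 and 259 FPKM in sgControl. All sgPLOD2 libraries were far below all sgControl libraries. The mean was 17.8% of that in sgControl, and the log2 fold change was -2.46 ± 0.10 (SE; limma adjusted p = 5.81e-06; 95% interval -2.71 to -2.22). It ranged from -2.65 to -2.23 over 19 alternatives and stayed called in each. The authors' deposited table gave -2.58 for GSTP1 and -2.92 for GGT1.

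**Figure D3:**
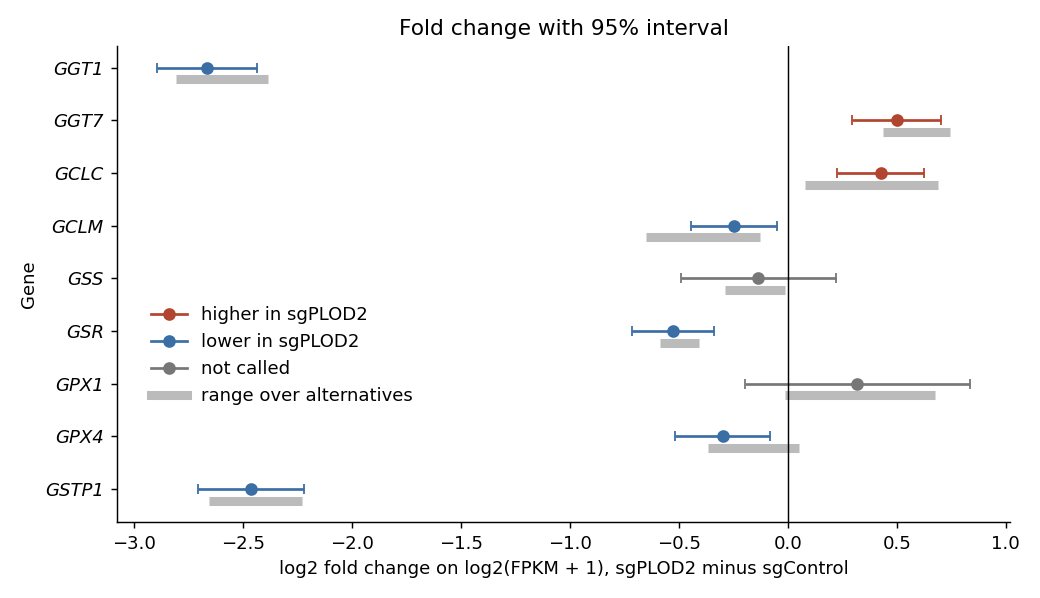
log2 fold change of each tested gene, sgPLOD2 minus sgControl on log2(FPKM + 1), with its 95% interval as whiskers and the range over the alternative settings as a grey bar. GGT1, GGT7, GCLC, GCLM, GSR and GSTP1 stay on their side of 0 with both, though the GCLC bar comes close to it, and the GPX1 and GPX4 bars cross it.

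Genes near each of these differed in how far they moved with it. Over all tested genes, 29.5% were called higher and 23.5% lower. Of the 6 tested genes within 500 kb of GGT1, 1 was called higher and 2 lower, with fold changes of -0.44 to 0.72 on the log2 scale, far from that of GGT1. Of 22 near GSTP1, 1 was called higher and 9 lower, and the lowest was at -1.33. All 3 called genes of the 4 near GCLC were higher, with a median of 0.44, close to the value of GCLC itself. Near GPX4, 17 of 33 were called lower and 3 higher, with a median of -0.31, close to that of GPX4. Near GPX1, 12 of 24 were called higher and 3 lower, with a median of 0.31. Near GCLM, 1 of 4 was called higher and 0 lower, with a median of 0.32, against -0.25 for GCLM. Near GSR, 2 of 6 were called higher and 0 lower, with a median of -0.24, against -0.53 for GSR. The median was -0.47 near GGT7, against its own 0.50, and -0.38 near GSS, against its own -0.13. What moved these neighbourhoods was not tested.

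**Figure D4:**
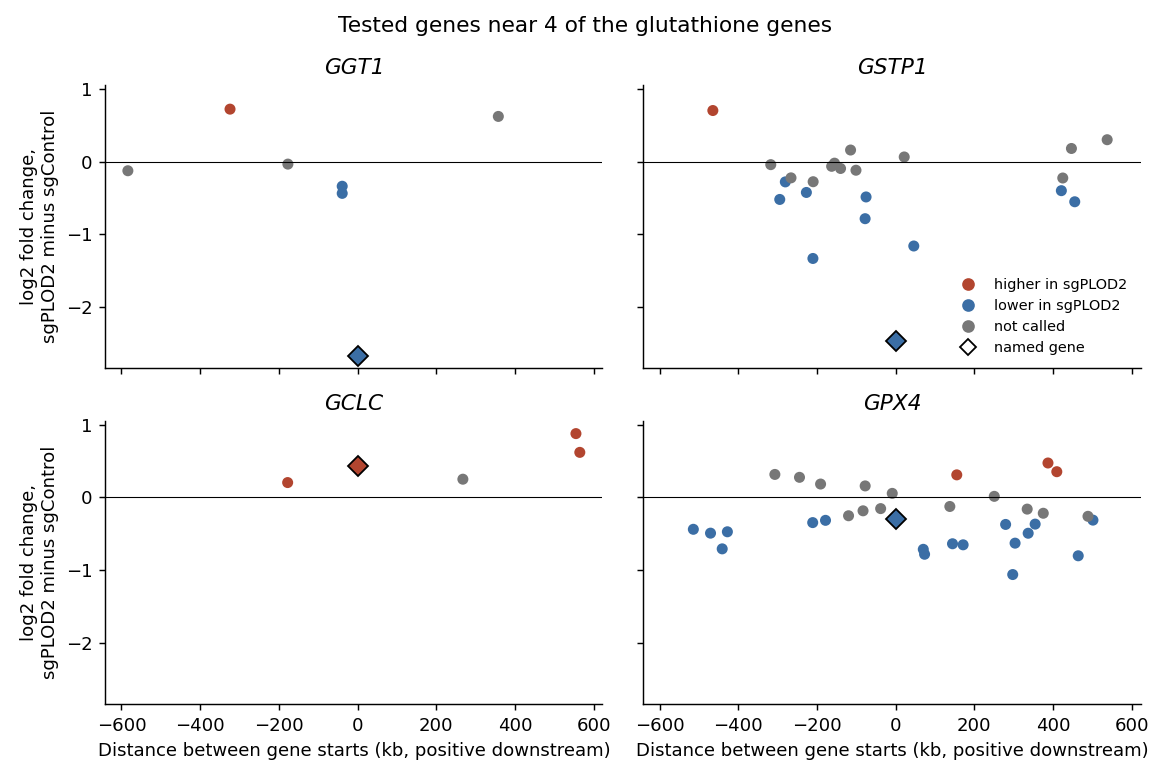
log2 fold change (sgPLOD2 minus sgControl) of tested genes within 500 kb of GGT1, GSTP1, GCLC or GPX4, by distance between gene starts in kb, positive downstream, with the named gene as a diamond. GGT1 and GSTP1 lie far below all their neighbours, whereas GCLC and GPX4 lie among theirs.

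The genes whose pattern over the 6 libraries was most like that of GGT1, by Pearson's correlation of log2(FPKM + 1), were SCARF2, EPOR, ECM1, GDF15 and STING1. Their correlations were 0.9997 to 0.9999, and their log2 fold changes were -4.01, -0.89, -1.84, -3.32 and -1.11. The 6 points form a low and a high cluster, so the difference between the groups largely sets these correlations, which are given without a test.

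The rest of the pathway was taken from 9 lists of 103 genes, of which 65 were tested. Of these, 16 were called higher and 18 lower, together a share near the 52.9% of all genes, and their median log2 fold change was 0.01.

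Among enzymes that act on glutathione or its breakdown products, the peptidase genes moved apart. ANPEP, the surface aminopeptidase that can split the cysteinylglycine left by GGT1, had 21.8, 24.4 and 26.1 FPKM in sgPLOD2, against 8.58, 7.68 and 7.61 FPKM in sgControl. It was higher in every sgPLOD2 library, with a log2 fold change of 1.48 ± 0.10 (SE; limma adjusted p = 4.60e-05). The cytosolic dipeptidase gene CNDP2 had 17.5, 16.6 and 17.9 FPKM in sgPLOD2, against 25.5, 26.5 and 27.7 FPKM in sgControl (log2 fold change -0.59, adjusted p = 0.000919). CHAC1, which degrades glutathione inside the cell and is an ATF4 target, had 2.06, 0.996 and 1.86 FPKM in sgPLOD2, against 4.29, 4.01 and 4.13 FPKM in sgControl (-0.99, adjusted p = 0.00233). Its relative CHAC2 was not called. GGCT, which acts on gamma-glutamyl amino acids, was called higher at 0.41 (adjusted p = 0.0131, or 0.0530 without sgPLOD2 replicate 2). After GC and length adjustment GGCT had 0.29 (adjusted p = 0.0568), and the authors' deposited table did not call it (adjusted p = 0.0575). LAP3 was called lower at -0.45 (adjusted p = 0.0194, or 0.0508 and 0.0614 without sgControl replicate 2 or 3). With TPM scaling LAP3 had -0.32 (adjusted p = 0.0757), and with quantile normalization -0.33 (0.0546). In all, 2 were called higher and 3 lower of 6 tested, of 11 listed. The shares of all tested genes were 29.5% higher and 23.5% lower. DPEP1, a membrane dipeptidase gene of the proximal tubule, was listed at 0 in 5 of 6 libraries.

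Of the other 6 glutathione peroxidases, only GPX8 was tested, and it rose. GPX8, an endoplasmic reticulum family member, had 6.32, 7.27 and 6.10 FPKM in sgPLOD2, against 3.22, 4.06 and 1.76 FPKM in sgControl (log2 fold change 0.96 ± 0.21 SE, limma adjusted p = 0.00864). GPX3, the secreted peroxidase made by the kidney, was under the filter, with 0.528, 0.488 and 0.623 FPKM in sgPLOD2, against 1.32, 1.13 and 1.73 FPKM in sgControl. GPX2, GPX5, GPX6 and GPX7 were below 0.1 FPKM in every library.

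Of 10 other glutathione transferases tested, 4 were called higher and 3 lower, against 29.5% higher and 23.5% lower of all tested genes. GSTM3, of the mu class, had 12.6, 10.7 and 11.3 FPKM in sgPLOD2, against 1.53, 1.53 and 1.74 FPKM in sgControl. Every sgPLOD2 library was far above every sgControl library, with a log2 fold change of 2.27 ± 0.10 (SE; limma adjusted p = 5.81e-06). GSTT2B, of the theta class, had 3.78, 3.85 and 3.52 FPKM in sgPLOD2, against 0.392, 0.0917 and 0.261 FPKM in sgControl (1.92, adjusted p = 2.11e-05). GSTT2B lies within 500 kb of GGT5 on chromosome 22 and has a near-identical copy, GSTT2, so its level is uncertain. GSTCD rose by 0.99, and GSTZ1, of the zeta class, rose by 0.71 (0.17 after centring each chromosome, adjusted p = 0.178). The membrane-bound transferase genes MGST1 and MGST3 fell, MGST1 by 0.73 (adjusted p = 0.00238) and MGST3 by 0.69 (adjusted p = 0.00127) on the log2 scale. GSTK1 was called lower at -0.49 (adjusted p = 0.0275, or 0.0927 and 0.0667 without sgPLOD2 replicate 2 or 3). After GC and length adjustment GSTK1 had -0.40 (adjusted p = 0.0629).

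Of 15 tested genes for glutaredoxins, which draw on glutathione, and for the thioredoxins, their reductases and the peroxiredoxins, 7 were called lower and 1 higher, against 23.5% lower and 29.5% higher of all tested genes. TXN, the thioredoxin gene, had 226, 203 and 177 FPKM in sgPLOD2, against 377, 272 and 295 FPKM in sgControl (log2 fold change -0.63 ± 0.15 SE, limma adjusted p = 0.0101). PRDX6, a peroxiredoxin that uses glutathione as its reductant, had 94.3, 85.3 and 88.3 FPKM in sgPLOD2, against 121, 124 and 132 FPKM in sgControl (-0.49, adjusted p = 0.00235). PRDX2 fell by 0.68 on the log2 scale (adjusted p = 0.00601). TXNRD2, the mitochondrial thioredoxin reductase, had -0.42 (adjusted p = 0.00528, or -0.24 with 0.0551 after GC and length adjustment and -0.21 with 0.0770 after centring each chromosome). PRDX1, the most abundant of the list at 478 to 548 FPKM in sgPLOD2 and 491 to 544 FPKM in sgControl, was not called. TXNRD1, the cytosolic reductase, had 24.4, 26.4 and 23.2 FPKM in sgPLOD2, against 11.4, 46.9 and 28.7 FPKM in sgControl, where the libraries disagreed by far more than in sgPLOD2. The other calls, GLRX2, GLRX3 and PRDX4 (lower) and TXNRD3 (higher), had adjusted p of 0.0125, 0.0231, 0.0439 and 0.0184. Each of these was lost when some single libraries were left out: GLRX2 without sgPLOD2 replicate 3, where it lay at the threshold, TXNRD3 without any 1 sgPLOD2 library (0.0529 to 0.0572), and GLRX3 (0.0503 to 0.0749) and PRDX4 (0.0947 to 0.132) without sgPLOD2 replicate 2 or 3 or sgControl replicate 2 or 3. After centring each chromosome TXNRD3 had 0.09 (adjusted p = 0.554), and it had 0.26 with quantile normalization or GC and length adjustment (adjusted p = 0.0954 and 0.103). PRDX4 had -0.27 with quantile normalization (adjusted p = 0.140) and -0.28 with TPM scaling (0.165). GLRX3 had -0.34 with quantile normalization (adjusted p = 0.0547) and -0.32 with TPM scaling (0.0960).

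The cystine transporter was not called, whereas its partner subunit fell. SLC7A11, which brings in cystine for glutathione synthesis, had 0.941, 1.37 and 1.14 FPKM in sgPLOD2, against 1.29, 1.33 and 0.944 FPKM in sgControl (log2 fold change -0.03, limma adjusted p = 0.861; after GC and length adjustment -0.48, adjusted p = 0.0125). SLC3A2, the heavy chain shared by several amino acid transporters, had 23.7, 21.0 and 24.3 FPKM in sgPLOD2, against 59.6, 66.7 and 57.4 FPKM in sgControl (-1.38, adjusted p = 6.32e-05). CBS, which starts the route from homocysteine to cysteine, rose by 0.54 (adjusted p = 0.00199), and CTH, which ends it, was not called. The exporter gene ABCC3 rose by 0.48 (adjusted p = 0.00333), and ABCC1 (-0.21) and ABCC4 (0.01) were not called. After GC and length adjustment both were called lower, ABCC1 at -0.54 (adjusted p = 0.0180) and ABCC4 at -0.34 (adjusted p = 0.0293). ABCC1 was also called lower without sgControl replicate 1 (-0.35, adjusted p = 0.0247) and had 0.04 after centring each chromosome. SLC25A39, the mitochondrial glutathione importer, was called higher at 0.45 (adjusted p = 0.0223), though not without sgPLOD2 replicate 1 (0.0650) or 3 (0.0722) or sgControl replicate 2 (0.0552) or 3 (0.0648), and it had 0.30 after centring each chromosome (0.0942). The authors' deposited table did not call SLC25A39 (adjusted p = 0.0839).

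Of 11 tested genes for NADPH supply, on which GSR depends, 2 were called higher and 2 lower. Over all tested genes, the shares were 29.5% higher and 23.5% lower. ME1, the cytosolic malic enzyme, had 16.4, 17.5 and 15.98 FPKM in sgPLOD2, against 9.53, 9.11 and 8.34 FPKM in sgControl (log2 fold change 0.82 ± 0.09 SE, limma adjusted p = 0.000356). TKT rose by 0.54 (adjusted p = 0.00136, or 0.21 with adjusted p = 0.0620 after centring each chromosome), and PGD fell by 0.36 (adjusted p = 0.00616). IDH2 was called lower at -0.24 (adjusted p = 0.0444), though not without sgPLOD2 replicate 1 or 2 or sgControl replicate 2 or 3 (0.0626 to 0.148). IDH2 had -0.11 with TPM scaling (adjusted p = 0.327), -0.11 with quantile normalization (0.295) and -0.10 after GC and length adjustment (0.351). ALDH1L2 was under the filter, with 1.32, 1.59 and 1.6 FPKM in sgPLOD2, against 0.177, 0.120 and 0.124 FPKM in sgControl. The authors' deposited table gave ALDH1L2 a log2 fold change of 3.325 (adjusted p = 3.99e-52). ALDH1L1, also under the filter, was near 0 in both groups.

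GPX1 and GPX4 are selenoproteins. Of 8 tested genes that make or regulate selenoproteins, 1 was called higher and 1 lower, against 29.5% higher and 23.5% lower of all tested genes. SEPHS2, which supplies selenophosphate, had 11.7, 11.3 and 10.4 FPKM in sgPLOD2, against 14.8, 21.1 and 23.5 FPKM in sgControl (log2 fold change -0.75, limma adjusted p = 0.00742). NCL, the nucleolin gene, rose by 0.50 (adjusted p = 0.00273). SECISBP2 and EEFSEC, which direct selenocysteine insertion, were not called (-0.18, adjusted p = 0.117, and 0.36, adjusted p = 0.0638). After GC and length adjustment both were, SECISBP2 at -0.52 (adjusted p = 0.00321) and EEFSEC at 0.57 (adjusted p = 0.0144). SECISBP2 was also called with quantile normalization (-0.35, adjusted p = 0.00869), and EEFSEC with TPM scaling, with the replicate block and without sgPLOD2 replicate 2 or sgControl replicate 1 (adjusted p = 0.0159 to 0.0457). The authors' deposited table called SECISBP2 lower (-0.378, adjusted p = 0.02765) and did not call EEFSEC (adjusted p = 0.230). HAGH, the glyoxalase gene that releases glutathione in the last step of methylglyoxal detoxification, had 2.87, 2.74 and 2.72 FPKM in sgPLOD2, against 6.62, 6.63 and 7.27 FPKM in sgControl (-1.05, adjusted p = 0.000106). GLO1, the enzyme before it, was called higher at 0.78 (adjusted p = 0.0449) but not without sgPLOD2 replicate 1, 2 or 3 or sgControl replicate 1 or 2 (0.0562 to 0.117). GLO1 had 0.43 after centring each chromosome (adjusted p = 0.227) and 0.59 after GC and length adjustment (0.113). ADH5 was called higher at 0.57 (adjusted p = 0.0201, or 0.0581 and 0.0507 without sgPLOD2 replicate 1 or 2, and 0.37 with adjusted p = 0.0950 after centring each chromosome), and ESD was not called.

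**Figure D5:**
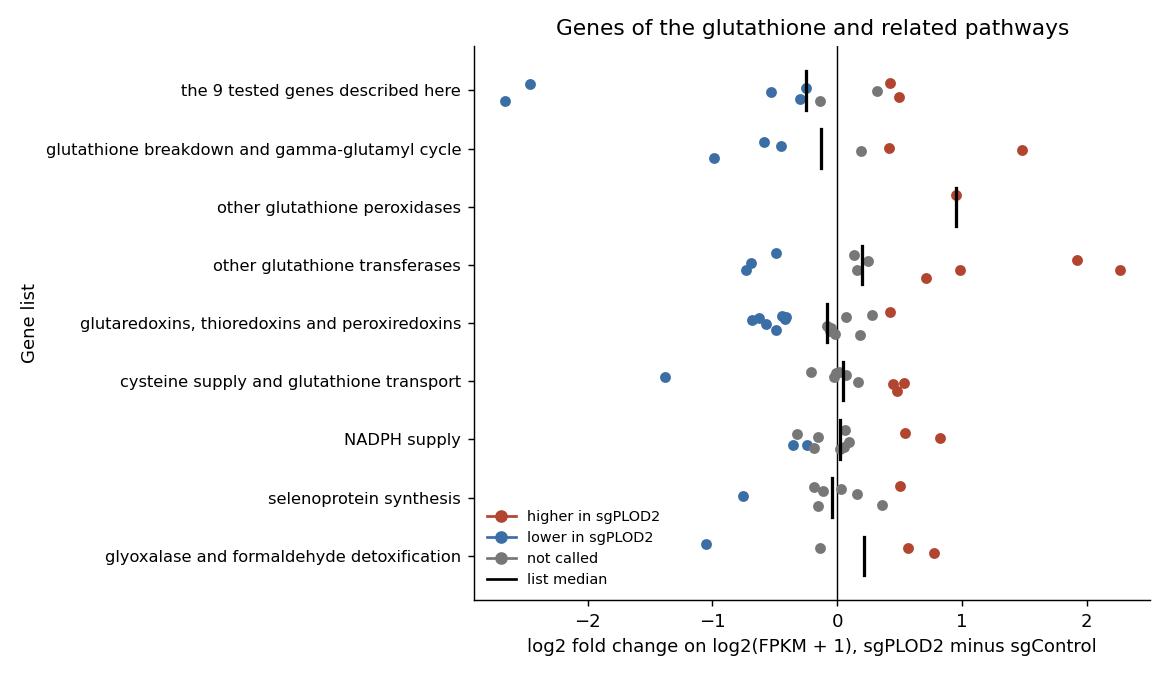
log2 fold change (sgPLOD2 minus sgControl on log2(FPKM + 1)) of every tested gene, by list, with the list median as a black line and the 9 tested genes described here in the top row. GGT1 and GSTP1 at the far left of the top row are further down than any gene of the other lists, and GSTM3 and GSTT2B are the furthest up.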

How the data were processed

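Total RNA of 6 libraries of 786-O cells, 3 sgPLOD2 and 3 sgControl by their titles, was sequenced, and 1 table of all libraries was used. Per the file headers, the authors deposited 1 FPKM value per gene and library and their own comparison of the groups: a mean normalized count (a signal averaged over libraries), a log2 fold change and its error, a score for the test, and p-values before and after adjustment. The submitters' processing notes name the build GRCh38 and the tools CASAVA, HISAT2 2.1.0 and StringTie 1.3.4, with no roles. Not given in the sources used here are the counting tool, strand setting, annotation release and the tool behind the authors' comparison. Fragments from close copies or overlapping genes may therefore have been shared.

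The deposited FPKM were put on the scale log2(FPKM + 1), and sgPLOD2 minus sgControl was tested, 2-sided, by limma 3.58.1 under R 4.3.3 with eBayes and its trend option, for 10469 genes averaging 1 FPKM or more, with Benjamini-Hochberg adjustment over all of them and a threshold of 0.05. The steps were tested on simulated data. The subunit ratio used an exact permutation test (scipy 1.17.1). No count test was run, since the table holds no counts per library, and no counting intervals are given. In genes found in 1 library, the deposited mean normalized counts were whole multiples of a step (100% within 0.01), which gave relative size factors of 0.927 to 1.09. FPKM totals were 229485 to 268612 per library.

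Alternatives were other pseudocounts, filters, scalings and variance models, a replicate block, leaving out each library, removal of a trend on GC content and length (mgcv 1.9.3), and removal of chromosome medians. Chromosomes and transcripts came from GENCODE 29 on GRCh38, matched by gene ID (58275 of 58395), and 99.9% of tested genes had GC content and length. Both were medians over a gene's annotated protein-coding transcripts, or over all its transcripts where none was protein-coding. Short transcripts counted equally, with median lengths of 853 bases for GGT1 and 615 for GGT7, so the adjustment is approximate. Coordinates are those of the deposited table. TPM scaling moved the median of all genes by 0.105 on the log2 scale, so changes under it are relative to that shift. The genes, lists and alternatives were chosen with earlier results of these data known. The text names all 10 genes, PLOD2, list members with their roles, including at least the 4 of smallest adjusted p per list, and the 5 genes most correlated with GGT1. GSTT1 was not analysed here. Some list members are not reported here.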

Additional observations from a re-analysis of the deposited data

How the results depend on the processing

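GGT1, GGT7, GSR, GSTP1 and PLOD2 kept their direction and call under all 19 alternatives, and GSS stayed uncalled under all 19. The number of the 10 genes called higher, 2 as reported, was 1 with a minimum of 5 FPKM (where GCLC was not tested), with the replicate block plus GC and length adjustment, and after centring each chromosome, and 2 to 3 without single libraries. The number called lower, 5, was 3 with TPM scaling and after centring each chromosome, and 3 to 4 without single libraries. GPX4 turned to 0.0521 after GC and length adjustment, and also to 0.0521 with the replicate block added, and GPX1 turned to -0.0131 after centring each chromosome; the cause was not tested. At a minimum of 5 FPKM, 1361 of all genes were called higher, against 3084, and 10 of the pathway lists, against 16, since fewer genes were tested. Of all calls, 55.7% were higher, against 66.9% with TPM scaling and 45.2% at a minimum of 5 FPKM. The log2 ratio of GCLC to GCLM stayed between 0.95 and 1.09 without single libraries and was 0.67 with a pseudocount of 1. Same-numbered libraries of the groups did not deviate together across the tested genes (correlations of 0.01, 0.14 and -0.05 for numbers 1 to 3). Whether they were prepared together was not stated, and these correlations cannot decide it. With the replicate number as a block, 2 genes were called higher and 4 lower, and the call of GCLM was lost (adjusted p = 0.0642). Absolute depth is unknown. The authors' deposited table gave GCLC, near 1 FPKM, a mean normalized count of 1656, so low FPKM there need not mean few fragments.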
